A study of Homo sapiens with 16 samples.

Results

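The genes described here are 10 noncoding snoRNA host genes, SNHG1, SNHG3, SNHG5, SNHG6, SNHG7, SNHG8, SNHG9, SNHG12, SNHG15 and GAS5. They were taken by symbol from 63653 genes measured in HCT116 cells, a line grown from a human colon carcinoma, and all 10 passed the filter on low values that left 12846 genes for testing. SNHG7, SNHG9 and SNHG15 were selected on their measured FPKM differences between treated and control groups in these same libraries, so their values are given as a description with no test, and counts of changed genes cover the other 7. The libraries form 4 groups of 2. Inhibitor cells received BIX 01294, a small-molecule inhibitor of the histone H3 lysine 9 methyltransferase G9a (gene symbol EHMT2), at 0.5 µM for 72 h, and inhibitor control libraries are labelled as its control. siRNA cells were transfected by lipid with 10 nM of a small interfering RNA against G9a and kept for 72 h, and siRNA control libraries are labelled as its control. The labels do not say how either control was treated, and they name no allele or further agent. Each library was sequenced in 2 runs, which were averaged, so n = 2 per group. The labels do not tie the 2 libraries of a group to separate cultures, and the spread on which p-values rest may thus be technical.

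Small nucleolar RNAs (snoRNAs) guide the chemical modification or cleavage of ribosomal and other RNAs. C/D box snoRNAs (SNORD) guide methylation of the ribose, and H/ACA box snoRNAs (SNORA) guide the conversion of uridine to pseudouridine. In humans most are cut from introns of longer host RNAs. Some hosts encode ribosomal or nucleolar proteins, while the SNHG genes and GAS5 encode no known major protein. Several spliced noncoding hosts, GAS5 among them, begin with a run of pyrimidines (a 5′ terminal oligopyrimidine tract), are engaged by ribosomes and are then degraded by nonsense-mediated decay, so their steady levels reflect both transcription and turnover. GAS5 is known for its accumulation in growth-arrested cells.

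The hosts differ in the snoRNAs they carry. In GENCODE v29 (GRCh38), the annotation used here, 23 snoRNA genes lay inside 9 of the 10 loci. Of these, 20 lay inside an exon of at least 1 host transcript and 3 (SNORD30, SNORA73B and SNORD99) only in introns. SNHG1 (chromosome 11, 62619460 to 62623386 in hg19) carried 7, SNHG12 (chromosome 1, 28905050 to 28909495) carried 5 and SNHG7 (chromosome 9, 139615818 to 139622636) carried 4, counting entries that overlap each other. SNHG3 (chromosome 1, 28832492 to 28837404) held 2, SNORA73A and SNORA73B. SNHG5 (chromosome 6, 86370710 to 86388451), SNHG6, SNHG8 (chromosome 4, 119199864 to 119200978), SNHG9 (chromosome 16, 2014960 to 2015510) and SNHG15 (chromosome 7, 45022622 to 45026560) held 1 each. In this annotation none lay inside GAS5 (chromosome 1, 173833038 to 173838020), although the files place SNORD78 there. The annotation used is thus incomplete for GAS5, and the number of snoRNAs it hosts is not given here. Whether reads from a snoRNA were counted in the value of its host is not stated, and this holds for every level below.

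H/ACA snoRNAs of 4 hosts are shown because 3 of these hosts were chosen for their changes and the remaining host, SNHG3, carried the hosted snoRNA with a value of its own above 0. The sequences are GENCODE v29 transcripts, written 5′ to 3′, and capitals mark the ACA box that lies close to the 3′ end of this class.
SNORA73A in SNHG3 (chr1:28507366-28507571, plus strand, GRCh38): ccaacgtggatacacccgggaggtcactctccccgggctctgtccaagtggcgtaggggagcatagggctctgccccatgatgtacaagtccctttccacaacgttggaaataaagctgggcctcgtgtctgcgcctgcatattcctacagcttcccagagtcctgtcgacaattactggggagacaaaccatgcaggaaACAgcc
SNORA73B in SNHG3 (chr1:28508559-28508762, plus strand, GRCh38): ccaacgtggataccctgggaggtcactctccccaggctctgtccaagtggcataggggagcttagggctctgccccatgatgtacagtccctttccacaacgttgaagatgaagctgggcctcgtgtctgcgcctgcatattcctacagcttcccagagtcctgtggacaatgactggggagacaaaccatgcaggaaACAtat
SNORA17A in SNHG7 (chr9:136726747-136726879, minus strand, GRCh38): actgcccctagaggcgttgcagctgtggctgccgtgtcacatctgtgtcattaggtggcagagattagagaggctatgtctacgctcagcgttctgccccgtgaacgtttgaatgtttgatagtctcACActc
SNORA78 in SNHG9 (chr16:1965184-1965310, plus strand, GRCh38): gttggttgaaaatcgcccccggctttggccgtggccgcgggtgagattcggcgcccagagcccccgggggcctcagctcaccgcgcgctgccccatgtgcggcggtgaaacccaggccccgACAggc
SNORA9 in SNHG15 (chr7:44985378-44985510, minus strand, GRCh38): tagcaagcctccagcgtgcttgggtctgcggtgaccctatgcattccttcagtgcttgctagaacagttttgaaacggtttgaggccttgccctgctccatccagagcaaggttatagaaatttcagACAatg
SNORA73A and SNORA73B matched at 192 of 206 aligned positions (93.2%), so short reads could be shared between them.

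Promoter windows were examined because all 7 tested hosts had positive coefficients with both treatments, and those with a pyrimidine run at the start are printed. Of all 12846 tested genes, 6542 had a positive coefficient with the inhibitor and 6117 with the siRNA. RefSeq promoter sequences (GRCh38.p14) were used for 7 members, SNHG1, SNHG3, SNHG5, SNHG7, SNHG8, SNHG12 and GAS5. These are not the 7 tested hosts: SNHG7, which was not tested, is among them, and the promoter of SNHG6 is not reported here. The windows below run from 50 bases before the annotated start to 50 bases from it onward, on the gene's strand. Capitals mark the unbroken run of C or T that holds the start base and, upstream of it, the letters TATAA.
SNHG1 (chr11:62855836-62855935, minus strand): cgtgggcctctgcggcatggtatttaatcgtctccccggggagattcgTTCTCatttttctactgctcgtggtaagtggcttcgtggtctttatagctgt
SNHG5 (chr6:85678684-85678783, minus strand): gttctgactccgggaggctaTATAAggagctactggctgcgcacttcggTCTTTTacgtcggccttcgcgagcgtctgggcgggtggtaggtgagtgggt
SNHG7 (chr9:136728135-136728234, minus strand): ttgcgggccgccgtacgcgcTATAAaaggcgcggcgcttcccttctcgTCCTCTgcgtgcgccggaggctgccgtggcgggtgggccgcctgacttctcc
SNHG8 (chr4:118278712-118278811, plus strand): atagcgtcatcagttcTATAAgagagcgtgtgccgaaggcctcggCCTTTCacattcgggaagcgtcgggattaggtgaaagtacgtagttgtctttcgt
SNHG12 (chr1:28581824-28581923, minus strand): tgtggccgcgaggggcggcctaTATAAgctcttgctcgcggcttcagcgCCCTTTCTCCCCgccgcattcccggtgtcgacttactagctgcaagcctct
The run reached at least 5 bases in these 5 of 7 members, against 9.6% of 35116 promoters in the table, and was longest in SNHG12 at 12 bases. GAS5 and SNHG3 had no C or T at the annotated start in the table, a run of 0. For GAS5 this differs from the pyrimidine tract described above. Whether that annotated start is the start of the GAS5 locus was not checked, so the run of 0 may not describe it. The SNHG3 start in the table is the start of the overlapping gene RCC1 (28832455 in hg19), upstream of the SNHG3 locus (28832492). The value for SNHG3 thus does not describe the start of that locus. TATAA stood in the 50 bases before the start of 4 members (SNHG5, SNHG7, SNHG8 and SNHG12), against 4.74% of all promoters, or 6.08% where either strand was searched, and those 4 held both features, against 0.4%. These matches describe letters at annotated starts, and which start was used in HCT116 was not measured.

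Before the results, 2 facts of the series bear on them. EHMT2 had 4.679 and 4.538 FPKM in siRNA libraries, against 15.93 and 17.77 in siRNA controls (log2 fold change -1.67 ± 0.09 SE, limma adjusted p = 0.000268), as the labels state. Levels are the authors' Cufflinks estimates in FPKM (fragments per kilobase and per 1000000 mapped fragments), scaled between libraries by factors of 0.878 to 1.091. The 2 inhibitor control libraries stood apart: over all tested genes their log2 values correlated with those of the other 6 libraries at r = 0.957 to 0.974, against 0.985 to 0.995 among the other 6. MALAT1, a nuclear noncoding RNA, had 57.6 ± 2.97 FPKM in inhibitor libraries, against 210 ± 29.2 in their controls (SD, n = 2 each). RNA28S5, a ribosomal RNA entry, had 2365 and 1045 FPKM in inhibitor libraries, against 210.3 and 40.81 in inhibitor controls. It had 5174 and 18930 FPKM in siRNA libraries and 7365 and 10800 in siRNA controls. Inhibitor libraries thus also lay below siRNA controls for RNA28S5 (log2 -2.50 ± 0.77, limma adjusted p = 0.26). RNA18S5 was listed at 0 throughout. Because the inhibitor controls stood apart, a further comparison sets inhibitor libraries against siRNA controls. That comparison shares the inhibitor libraries, its groups differ in RNA28S5, and handling may have differed. Taking run 1 of siRNA control replicate 1 as the unit, the estimated depth of a run was 0.298 to 1.016, lowest in inhibitor control replicate 2 and siRNA control replicate 2. Of 9 colon epithelial markers, 6 averaged at least 1 FPKM (EPCAM 73.4 to 95.29), while CDX1, VIL1 and LGALS4 lay below 1 in every library. Of those 6, EPCAM, KRT8, KRT18 and CDX2 stayed above 1 in every library. CDH1 (0.6232 to 2.016) and KRT20 (0.7044 to 1.611) fell below 1 in some libraries. Fibroblast markers were included because the labels, which give HCT116 as the source, also name fibroblasts. Of 9 such markers, 2 averaged at least 1 FPKM, FN1 (3.841 to 6.602) and COL1A1 (0.7295 to 2.069). PDGFRB reached 1.835, and LUM and FAP were at 0 in every library.

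**Figure D1:**
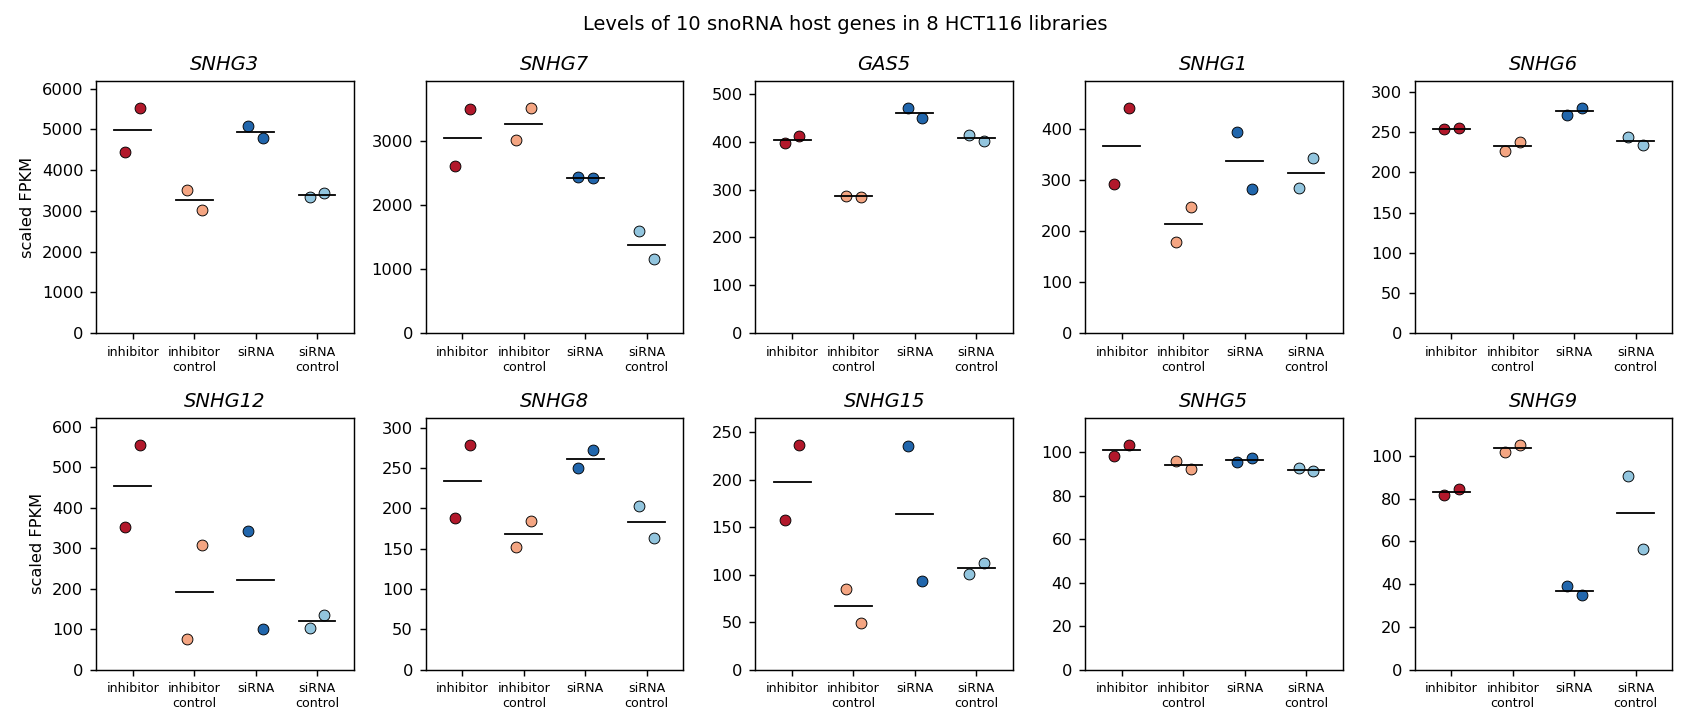
Scaled FPKM (linear axes from 0) of the 10 snoRNA host genes in each library, with points for the 2 libraries of a group, black lines for their mean, and genes ordered by mean level. All 4 treated libraries lie above all 4 control libraries for SNHG3 and SNHG6, while the points of SNHG12 and SNHG15 within a group lie far apart.

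SNHG3 and SNHG7 were far more abundant than the other hosts. Averaged over the 8 libraries, the order of levels was SNHG3 (4144 FPKM), SNHG7 (2522), GAS5 (389.6), SNHG1 (307.6), SNHG6 (250.5), SNHG12 (246.8), SNHG8 (211.7), SNHG15 (133.7), SNHG5 (95.82) and SNHG9 (74.28). Only 1 step in this order was free of overlap between libraries: the lowest SNHG7 value, 1148 FPKM, exceeded the highest GAS5 value, 470.5 FPKM. The ranges of all other neighbours in the order overlapped. Even SNHG9, the lowest, lay above 93.5% of tested genes in mean level.

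The hosts also differed in how steady they were. SNHG5 varied least over the 8 libraries, from 91.25 to 103.4 FPKM, a ratio of 1.13, and SNHG6 varied from 226.6 to 280.2 FPKM, a ratio of 1.24. SNHG12 varied most, from 76.55 to 556 FPKM, a ratio of 7.26, and SNHG15 varied from 48.72 to 236.7 FPKM, a ratio of 4.86. Within groups the pooled SD on the log2 scale was 0.98 for SNHG12 and 0.59 for SNHG15, against 0.03 for GAS5 and SNHG5.

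Part of this spread was present between repeated sequencing runs of the same library. For SNHG15 the higher run exceeded the lower by a median ratio of 1.57 over the 8 libraries, and by 3.25 in siRNA replicate 2. The median ratio was 1.36 for SNHG12 and 1.31 for SNHG9. It was 1.06 for the median of 1315 genes at 50 FPKM or more, of which 1.06% had a larger median ratio than SNHG15. SNHG3, with a median ratio of 1.02, was among the steadiest. The same 3 hosts had the widest Cufflinks intervals in the authors' files, with upper bounds lying a median of 58% above the value for SNHG15, 54.2% for SNHG12 and 45.1% for SNHG9, against 5.46% for SNHG3 and 4.32% for GAS5.

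**Figure D2:**
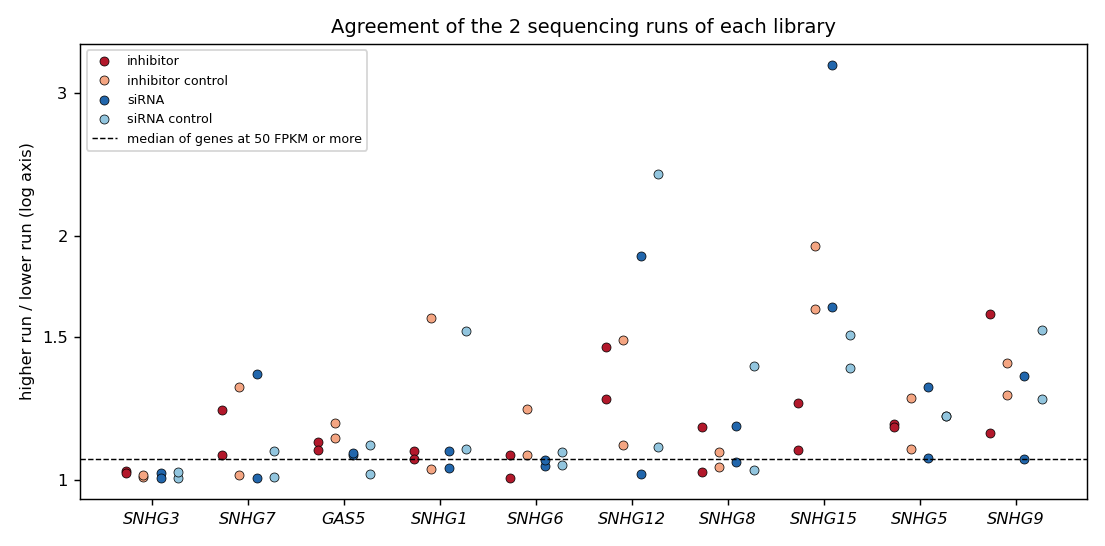
Ratio of the higher to the lower sequencing run (log axis) for each host gene in each of the 8 libraries, coloured by group, with the dashed line at 1.06, the median of genes at 50 FPKM or more. SNHG15, SNHG12 and SNHG9 have the largest median ratios, and SNHG3 lies between 1 and 1.03.

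Among the 7 hosts not chosen for a change, 3 rose with the inhibitor, GAS5, SNHG3 and SNHG1, and none fell. Over all tested genes, 36.5% were called (limma, Benjamini-Hochberg adjusted p under 0.05), 17.7% higher and 18.7% lower, so the background of this comparison is large. All 7 fold changes were positive, with a median log2 of 0.50, against 0.01 over all genes tested. Over all genes 6542 of 12846 coefficients were positive. The 7 values come from the same libraries and are not independent. In bulk RNA, fewer cells that make a transcript and less of it per cell cannot be told apart.

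GAS5 had 397.2 and 411.8 FPKM in inhibitor libraries, against 286.8 and 284.7 in inhibitor controls. The libraries of a group were nearly equal and the groups did not overlap. The log2 fold change was 0.50 ± 0.05 (SE, limma adjusted p = 0.000124). SNHG3 had 4454 and 5523 FPKM with the inhibitor, against 3510 and 3012 in inhibitor controls, again without overlap. It rose by a log2 of 0.61 ± 0.11 (limma adjusted p = 0.00227), and the call held when any 1 library was left out.

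SNHG1, whose RNA carries a set of C/D box snoRNAs, had 291.2 and 440.6 FPKM with the inhibitor, against 179 and 247.7 in inhibitor controls. It rose by a log2 of 0.76 ± 0.22 (limma adjusted p = 0.0257), and was called in 8 of 14 alternatives (adjusted p 0.00459 to 0.202). The call rested on single libraries: without inhibitor replicate 2 the log2 was 0.47 (limma adjusted p = 0.18) and without inhibitor control replicate 1 it was 0.53 (limma adjusted p = 0.155).

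The remaining 4 hosts did not pass the test, although both inhibitor libraries lay above both controls in each. This arrangement was found for 36.3% of all genes. SNHG6 (chromosome 8, 67833919 to 67838633 in hg19) had 254.4 and 255 FPKM with the inhibitor, against 226.6 and 238.2 (log2 0.13 ± 0.05, limma adjusted p = 0.0576), and passed in the first run alone (log2 0.21, limma adjusted p = 0.0244). SNHG8 had 188.7 and 279 FPKM, against 152 and 184.3 in inhibitor controls (log2 0.45 ± 0.17, limma adjusted p = 0.0684), and passed without inhibitor replicate 1 (log2 0.73, limma adjusted p = 0.00996). Without inhibitor replicate 2 its log2 was 0.17 (limma adjusted p = 0.436). SNHG12 had 352.5 and 556 FPKM, against 76.55 and 308.2 in inhibitor controls, the widest spread of the group. Its log2 fold change was 1.52 ± 0.65 (limma adjusted p = 0.1), and without inhibitor control replicate 2 it was 2.52 (limma adjusted p = 0.0153). Without inhibitor control replicate 1 it was 0.52 (limma adjusted p = 0.545), and with FPKM as deposited it was 1.51 (limma adjusted p = 0.042). SNHG5 had 98.3 and 103.4 FPKM with the inhibitor, against 95.9 and 92.3, a log2 of 0.10 ± 0.05 (limma adjusted p = 0.148).

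Set against the siRNA controls, the inhibitor libraries gave no call among the 7 hosts, with 3 at an unadjusted p under 0.05 (SNHG3, SNHG5 and SNHG12). Only 0.0389% of all genes were called in that comparison, at the adjusted threshold. The share of all genes at an unadjusted p under 0.05 was not counted, so the 3 hosts have no background to stand beside. SNHG3 had a similar difference there, 4454 and 5523 FPKM in inhibitor libraries against 3346 and 3445 in siRNA controls (log2 0.55 ± 0.11, limma adjusted p = 0.136). GAS5 did not, with inhibitor libraries at 397.2 and 411.8 FPKM, against 413.6 and 401.3 in siRNA controls, values that interleave. Its log2 difference was -0.01 ± 0.05 (limma adjusted p = 0.943), with a 95% interval of -0.12 to 0.09, which does not reach the 0.50 seen against the inhibitor controls. For SNHG1 the log2 difference was 0.20 ± 0.22 (limma adjusted p = 0.76), and the groups overlapped. For SNHG12 it was 1.90 ± 0.65 (limma adjusted p = 0.3) and for SNHG8 0.33 ± 0.17 (limma adjusted p = 0.465). For SNHG5 it was 0.13 ± 0.05 (limma adjusted p = 0.324) and for SNHG6 0.09 ± 0.05 (limma adjusted p = 0.461).

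The 2 control groups, set against each other, place these differences. GAS5 was higher in siRNA controls than in inhibitor controls by a log2 of 0.51 ± 0.05 (limma adjusted p = 9.65e-05), the only host of the 7 called, where 38.3% of all genes were called. SNHG1 differed by 0.57 ± 0.22 (limma adjusted p = 0.0732). SNHG3 had 3346 and 3445 FPKM in siRNA controls and 3510 and 3012 in inhibitor controls, a log2 difference of 0.06 ± 0.11 with a 95% interval of -0.17 to 0.30 (limma adjusted p = 0.673).

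With the siRNA against G9a, SNHG3 was the 1 host of the 7 called, where 2.13% of all genes were called, 0.802% higher and 1.32% lower. SNHG3 had 5071 and 4791 FPKM in siRNA libraries, against 3346 and 3445 in siRNA controls. The groups stood well apart, and the log2 fold change was 0.54 ± 0.11 (limma adjusted p = 0.0425). The adjusted p lay close to the threshold, and leaving out any 1 of the 4 libraries ended the call, with adjusted p between 0.0764 and 0.221 and log2 values of 0.50 to 0.58. It was called in 3 of 14 alternatives (adjusted p 0.0305 to 1).

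The other 6 hosts did not pass, and all their coefficients were positive, so that the median log2 of the 7 was 0.21, against -0.01 over all genes. Over all genes 6117 of 12846 coefficients were positive. SNHG6 had 271.6 and 280.2 FPKM in siRNA libraries, against 243.9 and 233.8 in siRNA controls (log2 0.21 ± 0.05, limma adjusted p = 0.0605). GAS5 had 470.5 and 450.6 FPKM, against 413.6 and 401.3 in siRNA controls (log2 0.18 ± 0.05, limma adjusted p = 0.0806). SNHG8 had 250.5 and 272.1 FPKM with the siRNA, against 203.5 and 163.3 (log2 0.52 ± 0.17, limma adjusted p = 0.139). These 3 and SNHG5 did not overlap between groups, an arrangement with both treated libraries above both controls that 23.8% of all genes showed. SNHG1 (log2 0.09 ± 0.22) and SNHG12 (0.64 ± 0.65) overlapped between groups, and SNHG5 stood at 95.6 and 97.2 FPKM with the siRNA, against 92.5 and 91.3 (0.07 ± 0.05).

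The inhibitor and siRNA effects were compared directly as the difference of the 2 log2 fold changes. GAS5 was the 1 host of the 7 called, its inhibitor effect exceeding its siRNA effect by 0.32 ± 0.07 (limma adjusted p = 0.0168), where 11.8% of all genes were called. The inhibitor controls, which held the lowest GAS5 values, enter this difference, and their part in it was not tested. For SNHG3 the effects differed by 0.07 ± 0.15 (limma adjusted p = 0.801), with a 95% interval of -0.27 to 0.41. Taking both treatments at once, all 4 treated libraries exceeded all 4 control libraries for SNHG3 and SNHG6, 2 of the 7 hosts, an arrangement found for 5.57% of all genes.

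**Figure D3:**
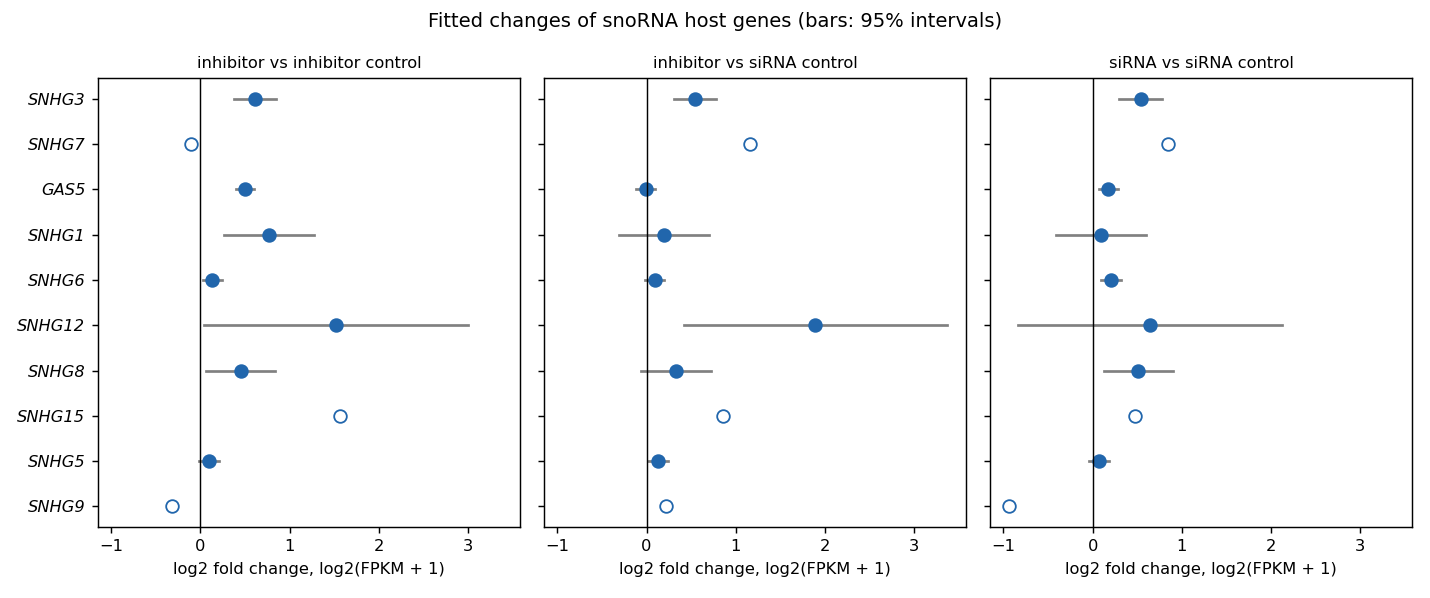
Fitted log2 fold changes on the log2(FPKM + 1) scale for each host gene in 3 comparisons, with 95% intervals from the shared fit. Open circles without intervals are SNHG7, SNHG9 and SNHG15, which were chosen for their changes. SNHG3 lies between 0.54 and 0.61 in each panel, whereas GAS5 lies at 0.50 against inhibitor controls and at -0.01 against siRNA controls.

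SNHG7, chosen for its change, was high in 3 groups and low in the siRNA controls. It had 2602 and 3485 FPKM in inhibitor libraries, against 3008 and 3506 in inhibitor controls, which overlapped (log2 -0.11 ± 0.16, with values of -0.61 to 0.10 over 14 alternatives). With the siRNA it had 2431 and 2411 FPKM, against 1586 and 1148 in siRNA controls (log2 0.84 ± 0.16). Against the same siRNA controls the inhibitor libraries differed by a log2 of 1.16 ± 0.16. The siRNA controls themselves lay below the inhibitor controls (log2 -1.27 ± 0.16), so the control groups differed by more than either treatment differed from its own control.

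SNHG9, the shortest locus of the 10 at 551 bases, was lowest with the siRNA. It had 39 and 35 FPKM in siRNA libraries, against 90.5 and 56.4 in siRNA controls (log2 -0.93 ± 0.17). With the inhibitor it had 81.9 and 84.3 FPKM, against 101.8 and 105.2 in inhibitor controls (log2 -0.31 ± 0.17). Against siRNA controls the inhibitor libraries' log2 was 0.21 ± 0.17, of the opposite sign, and the groups overlapped. Leaving out siRNA control replicate 1 gave a siRNA log2 of -0.60, and leaving out replicate 2 of that group gave -1.27. In addition, the siRNA controls lay below the inhibitor controls (log2 -0.53 ± 0.17).

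SNHG15, known for a short-lived RNA, was highest in inhibitor libraries and in 1 siRNA library. It had 157.5 and 236.7 FPKM with the inhibitor, against 85.2 and 48.7 in inhibitor controls (log2 1.57 ± 0.39), and against siRNA controls at 101.2 and 111.9 the log2 was 0.85 ± 0.39. The siRNA libraries, at 235 and 93.2 FPKM, lay on either side of their controls (log2 0.47 ± 0.39), and this log2 was -0.19 without siRNA replicate 1 and 1.14 without siRNA replicate 2. The 93.2 FPKM library is the one whose runs differed most, at 144.7 FPKM in the first run and 44.49 in the second, and in the second run alone the siRNA log2 was -0.20.

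Profiles most like those of the 3 chosen hosts were sought among all tested genes by the Pearson correlation of log2 values over the 8 libraries, as a description. The points share 4 groups, 1 of which stood apart, and the genes were picked as the highest of all tested. For SNHG7 they were CPOX (r = 0.949), LIPA (0.945) and PDGFB (0.945). For SNHG9 they were UBAC2 (r = 0.983), HDLBP (0.976) and KIAA0319L (0.973), and for SNHG15 they were GATA6 (0.949), CTB-31O20.2 (0.948) and CDKN1C (0.936). The correlation does not measure the size of a change. GATA6 averaged 1.059 FPKM, near the filter of 1, and its group means spanned only 0.9472 to 1.16 FPKM. None of these 9 is another host. Among the hosts themselves SNHG6 and SNHG8 were most alike (r = 0.873), followed by SNHG3 and SNHG15 (0.835), whereas SNHG6 and SNHG9 ran in opposite directions (-0.766).

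The snoRNAs themselves could be followed in few cases. Of the 23 annotated inside the hosts, 3 had an entry of the same identifier in the files. SNORD87 in SNHG6 and SNORD99 in SNHG12 were listed at 0, as was SNORD78 in GAS5. SNORA73B, the intronic snoRNA of SNHG3 printed above, was abundant, although at 204 bases it is below the length at which Cufflinks values were tested in the main analysis. It had 2654 and 3523 FPKM with the inhibitor, against 2097 and 2325 in inhibitor controls, and 2585 and 2283 with the siRNA, against 1599 and 1786 in siRNA controls. In a fit that kept short genes the log2 fold change was 0.47 ± 0.14 with the inhibitor (limma adjusted p = 0.0405) and 0.52 ± 0.14 with the siRNA (limma adjusted p = 0.123), and against siRNA controls the inhibitor libraries' log2 was 0.86 ± 0.14 (limma adjusted p = 0.146). In that fit the SNHG3 change was 0.61 with the inhibitor (limma adjusted p = 0.00831) and 0.54 with the siRNA (limma adjusted p = 0.0914).

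RCC1, which encodes the nucleotide exchange factor of the GTPase Ran, overlaps SNHG3 and moved the other way. It had 45.97 and 47.85 FPKM with the inhibitor, against 75.02 and 78.93 in inhibitor controls (log2 -0.70 ± 0.06, limma adjusted p = 5.03e-05). With the siRNA it had 40.31 and 39.16 FPKM, against 47.75 and 49.8 (log2 -0.29 ± 0.06, limma adjusted p = 0.0414). Against siRNA controls the inhibitor libraries differed by -0.06 ± 0.06 (limma adjusted p = 0.719). How reads were divided between the overlapping genes is not given.

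**Figure D4:**
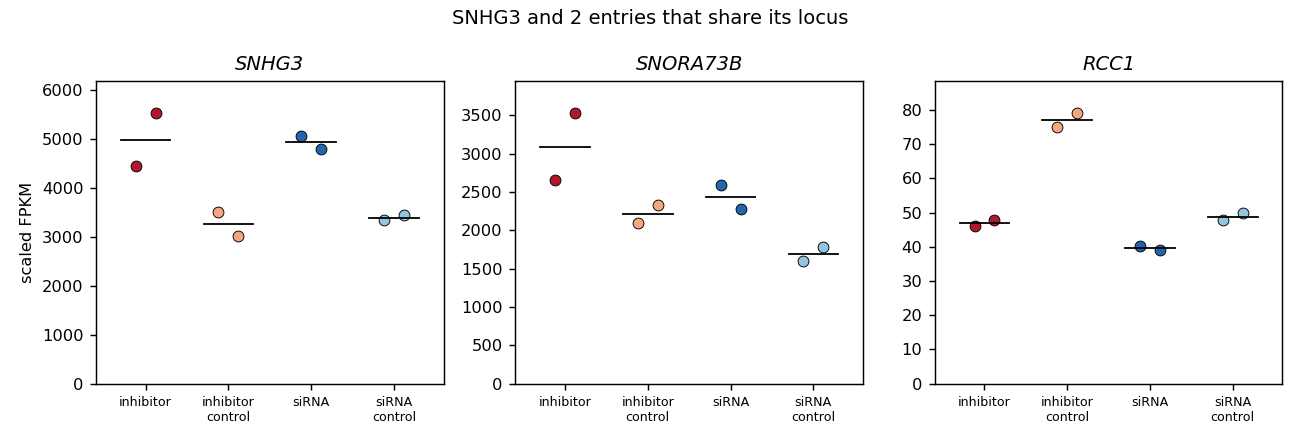
Scaled FPKM (linear axes from 0) of SNHG3, of SNORA73B inside it and of the overlapping gene RCC1 in each library, with points for the 2 libraries of a group and black lines for their mean. SNHG3 and SNORA73B are higher with each treatment than in its own controls, and RCC1 is lower.

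Other neighbours within 1 kb were mixed. RPS2, a ribosomal protein gene 98 bases from SNHG9, fell with the inhibitor to 934 ± 20.5 FPKM, against 1839 ± 77.1 in inhibitor controls (log2 -0.98 ± 0.07, limma adjusted p = 2.56e-05), with a log2 of 0.08 against siRNA controls (limma adjusted p = 0.62). GAS5-AS1, annotated antisense to GAS5, rose with the inhibitor to 7.958 and 8.715 FPKM, against 5.768 and 5.926 (log2 0.45 ± 0.09, limma adjusted p = 0.00419). Against siRNA controls its log2 was 0.04 (limma adjusted p = 0.885). TRNAU1AP, which overlaps SNHG12, also rose with the inhibitor (log2 0.29 ± 0.09, limma adjusted p = 0.0378), and lay at -0.24 against siRNA controls (limma adjusted p = 0.35). SLC3A2 beside SNHG1, FAM69B overlapping SNHG7, PRSS12 beside SNHG8 and ZBTB37 overlapping GAS5 did not pass with either treatment. PKMP3 beside SNHG5, MCMDC2 overlapping SNHG6 and AC005363.9 beside SNHG9 averaged below 1 FPKM and were not tested. Whether counting used the strand is not given, so values of overlapping and antisense genes are uncertain.

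Genes related to the hosts by function were counted from lists drawn up from textbook knowledge. The counts stand beside a background of all genes, of which 36.5% were called with the inhibitor (17.7% higher, 18.7% lower). With the siRNA 2.13% were called (0.802% higher, 1.32% lower). Of 20 other noncoding hosts, 10 had an entry and 8 were tested. With the inhibitor 4 of these rose and none fell, namely ZFAS1 (122.7 ± 5.29 FPKM, against 86.9 ± 0.163 in inhibitor controls, log2 0.49, limma adjusted p = 0.000365), C6orf48 (log2 0.26), SNHG16 (0.19) and EPB41L4A-AS1 (0.44). With the siRNA 1 rose, C6orf48, to 210.9 ± 12.2 FPKM, against 155.5 ± 7.59 in siRNA controls (log2 0.44 ± 0.06, limma adjusted p = 0.0173). Their median log2 was 0.23 with the inhibitor and 0.04 with the siRNA.

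Of 41 hosts that encode proteins, 16 rose and 13 fell with the inhibitor, with a median log2 of 0.11. The 4 with the smallest p all fell: NCL, encoding nucleolin (119 ± 5.38 FPKM, against 480.3 ± 3.34 in inhibitor controls, log2 -2.01), RPS2, RCC1 and RPL3 (-1.13), a ribosomal protein gene. With the siRNA 1 rose, the ribosomal protein gene RPL10 (log2 0.30), and 3 fell, NCL (-0.59), RCC1 and NOP56 (-0.25), the last encoding a core protein of C/D box particles.

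Among 17 proteins of snoRNA particles or their assembly, 7 fell and 5 rose with the inhibitor. NOLC1 (log2 -1.01), a nucleolar chaperone of these particles, FBL (-1.54), the methyltransferase of C/D box particles, GAR1 (-1.15) and DKC1 (-0.66), the pseudouridine synthase of H/ACA particles, had the smallest p. With the siRNA none rose and NOLC1 (-0.37) and NOP56 fell. FBL had 45.8 ± 1.61 FPKM with the inhibitor, against 135.1 ± 11.6 in inhibitor controls and 48.2 ± 5.92 in siRNA controls. Of 15 factors of nonsense-mediated decay, 2 rose and 5 fell with the inhibitor, among them MAGOH (-0.98), UPF3B (-1.25), UPF3A (-0.83) and CASC3 (-0.36), with limma. With the siRNA limma called none of the 15, with 4 at an unadjusted p under 0.05, led by CASC3 (log2 -0.23) and SMG5 (-0.19). The share of all genes under that unadjusted cut was not counted.

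With the inhibitor libraries set against siRNA controls, limma called 0 genes of these 4 lists. ZFAS1 (log2 -0.04), NCL (0.05), NOLC1 (0.03) and FBL (-0.07), which passed against the inhibitor controls, lay near 0 there. Not all named genes that passed did so. GAR1 (0.307), UPF3B (0.305), RPL3 (0.277) and MAGOH (0.235), lower against the inhibitor controls, lay above 0 there (limma adjusted p 0.292 to 0.39). At an unadjusted p under 0.05 stood 3 of 8 other noncoding hosts and 8 of 41 coding hosts. The same held for 3 of 17 proteins of snoRNA particles or their assembly and 3 of 15 decay factors. How many of all genes stood under this unadjusted cut was not counted. The smallest p in each list belonged to SNHG17 (log2 -0.74, limma adjusted p = 0.23) and DANCR (-0.26), EEF2 (-0.16) and EIF4A2 (0.16), NHP2L1 (-0.17) and RUVBL2 (-0.14), and SMG1 (-0.22) and MAGOH (0.24).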

How the data were processed

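The authors deposited gene-level FPKM from Cufflinks, 1 file per sequencing run, per the file headers; the submitters' processing notes name STAR 2.3.0e, SAMtools 0.1.19, Cufflinks and hg19. The kit was stranded and for total RNA, per the labels' protocols. Annotation release, options and strand use are not stated. The files hold no counts, so depth was estimated only relatively.

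Entries that repeat an identifier were summed, the 2 runs of a library averaged, and libraries scaled by median-of-ratios factors. Genes with mean FPKM of at least 1 and loci of at least 300 bases were kept (12846). log2(FPKM + 1) was tested two-sided with limma 3.58.1 (R 4.3.3; trend; all 4 groups in 1 fit, 4 residual and 5.04 prior degrees of freedom), with Benjamini-Hochberg adjustment over all tested genes at 0.05. Fold changes on this scale understate low genes. The fit was tested on simulated data. Comparisons that share libraries are not independent.

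Members and lists were chosen with earlier results of these data known. Named were EHMT2, all members, genes within 1 kb, snoRNAs inside members, per list and comparison up to 4 called genes with the smallest p (where none was called, 2 uncalled ones), the 3 genes most like each chosen member, and RNA28S5, RNA18S5 and MALAT1. Alternatives changed pseudocount, scaling, filters, runs, model and libraries. A further snoRNA sequence is not reported here.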

Additional observations from a re-analysis of the deposited data

Results flagged for a closer look

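GAS5 is given here because its inhibitor effect and its siRNA effect differed, by 0.324 on the log2 scale (limma adjusted p = 0.0168). GAS5 had 397.2 and 411.8 FPKM in inhibitor libraries, against 286.8 and 284.7 in inhibitor controls, and 470.5 and 450.6 FPKM in siRNA libraries, against 413.6 and 401.3 in siRNA controls. The inhibitor controls, which stood apart from all other libraries, held the lowest values, and their part in the difference was not tested. Against siRNA controls the inhibitor libraries' log2 difference was -0.01. Over 17 alternatives the difference ranged from 0.29 to 0.37 and stayed called in 13. It lost its call without inhibitor replicate 2 (0.30, adjusted p = 0.0751) and without siRNA replicate 2 (0.29, adjusted p = 0.0634). It also lost it with no filter on low values (adjusted p = 0.0723) and with FPKM as deposited (adjusted p = 0.23).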

How the results depend on the processing

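Each group holds 2 libraries and the FPKM files hold no read counts, which limits the precision. The inhibitor count of 3 called hosts stayed between 2 and 4, and the count against siRNA controls stayed at 0, in all alternatives. The siRNA count of 1 became 0 with FPKM as deposited, quantile normalization, no filter on low values, short genes kept, the first run alone, the second run alone, and from 0 to 0 without each library. Quantile normalization sets the SNHG3 siRNA value to 0 by construction, since SNHG3 holds the same rank among the highest genes. With the replicate block the siRNA count was 0 of 7 (68 genes called in all, against 273 without it) and no other count of called hosts changed; same-numbered libraries deviated together little (correlations 0.048, 0.043 and -0.068, over 2 pairs), so the numbers were not taken to pair libraries. Between the controls the count of 1 became 2 with the second run alone and with only the compared groups fitted, and was 1 to 2 without each library. For the difference of effects it became 0 as deposited and with no filter, 2 with quantile normalization, and 0 to 1 without each library. Scaling moved the direction of calls over all genes: calls higher were 48.6% with the inhibitor (34.8% as deposited, 56.8% quantile), 37.7% with the siRNA (14.9% and 49.1%), 50.3% between controls (18% and 55.8%) and 43.6% for the difference of effects (32.8% and 49.8%). The median of all genes between controls was -0.108 as deposited.

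No coefficient past the threshold changed sign. Among the 7 tested hosts, uncalled log2 values changed sign as follows, and the cause was not tested. As deposited, GAS5 against siRNA controls was 0.11 with the inhibitor, and between controls SNHG3 was -0.074, SNHG6 -0.096 and SNHG8 -0.013. With quantile normalization, GAS5 with the inhibitor against siRNA controls was 0.001 and SNHG6 between controls was -0.03. With the first run alone, SNHG1 was -0.03 with the siRNA and -0.024 with the inhibitor against siRNA controls, and the SNHG8 difference of effects was 0.085. With the second run alone, GAS5 with the inhibitor against siRNA controls was 0.014, and between controls SNHG6 was -0.001 and SNHG12 0.09. Leaving out each library gave, with the siRNA, SNHG1 -0.147 to 0.329 and SNHG12 -0.243 to 1.527, and with the inhibitor against siRNA controls SNHG1 -0.101 to 0.495 and GAS5 -0.037 to 0.015. Between controls it gave SNHG3 -0.048 to 0.173, SNHG8 -0.035 to 0.281 and SNHG12 -1.375 to 0.621. For the difference of effects it gave SNHG3 -0.084 to 0.226, SNHG5 -0.006 to 0.066, SNHG8 -0.344 to 0.218 and SNHG12 -0.121 to 1.874. Of the 3 chosen hosts, which have no test, SNHG15 with the siRNA was -0.196 with the second run alone and -0.189 to 1.136 without each library, and SNHG7 with the inhibitor was 0.086 with the first run alone and -0.32 to 0.102 without each library. SNHG9 with the inhibitor against siRNA controls was -0.077 with the first run alone and -0.122 to 0.55 without each library. Quantile normalization gave SNHG7 -0.611 with the inhibitor, 0.572 with the siRNA and -1.593 between controls. SNHG9 was -1.269 to -0.597 with the siRNA and -0.864 to -0.191 between controls without each library.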
